A study of Homo sapiens with 6 samples.

Results

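CREB5 and 9 related transcription factors of the CREB/ATF group were examined in HEK293 cells, an established human line of embryonic kidney origin, with and without a disrupted CNBP gene. The 10 genes (CREB5, CREB1, CREM, ATF1, ATF2, ATF7, CREB3, CREB3L2, CREB3L4 and CREBZF) were taken by gene symbol from a table of 19892 genes, and all 10 were found. They were chosen because of the wild-type and knockout values described here, so those values are a description and carry no test. The study compared wild-type HEK293 cells with HEK293 cells carrying a CRISPR-Cas9 knockout of CNBP, which encodes a zinc-knuckle protein that binds nucleic acids, and its title concerns the binding of that protein to G-rich elements in coding sequences. Both groups are the same cell line with no other treatment given in the labels, and each has 3 libraries of total RNA. The labels do not say whether the 3 knockout libraries come from 1 clone or from several. The table gives 1 value per gene and group, in FPKM (fragments per kilobase of transcript, scaled to the mapped fragments of the library), so no difference below can be set against the spread between libraries, and no p-value or standard deviation is given.

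CREB/ATF proteins bind DNA as dimers through a basic region and a leucine zipper, and many of them recognise the cAMP response element. CREB1, CREM and ATF1 are the cAMP-responsive subfamily, which protein kinase A phosphorylates and which then recruits the coactivators CREBBP and EP300. ATF2, ATF7 and CREB5 form another subfamily, which is regulated by stress-activated MAP kinases and can pair with JUN proteins. The CREB3 proteins are made as membrane proteins of the endoplasmic reticulum and reach the nucleus after cleavage by the site-1 and site-2 proteases. CREBZF is an atypical member that binds the cofactor HCFC1.

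CREB5 mRNA was 16.6 FPKM in wild type and 71.1 FPKM in the knockout column, which is 4.29-fold higher in the knockout, a log2 ratio of 2.10. Among the 10 factors it was the seventh most abundant in wild type and the most abundant in the knockout column. The other 9 lay between 8.98 and 41.7 FPKM in wild type and between 8.35 and 41.6 FPKM in the knockout column, with log2 ratios from -0.23 to 0.28. Summed over those 9, the level was 202 FPKM in wild type and 205 FPKM in the knockout column.

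**Figure D1:**
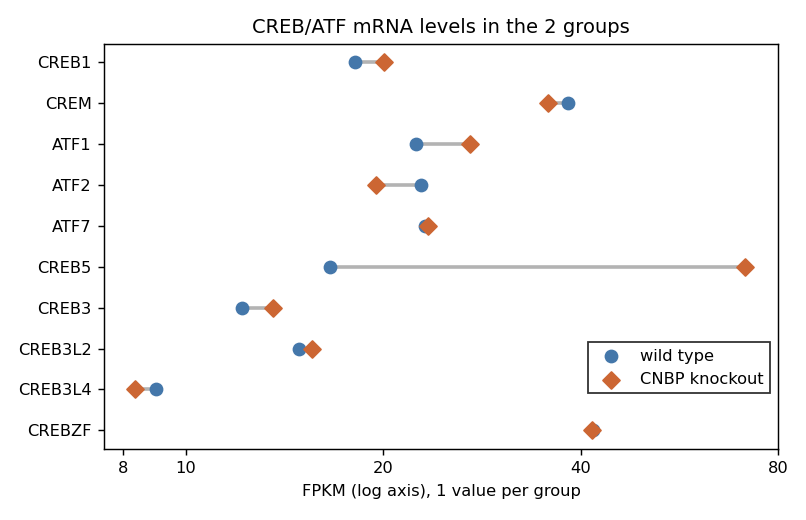
Level of each factor in FPKM on a log axis, with a circle for wild type and a diamond for CNBP knockout, 1 value per group and no error. CREB5 spans 16.6 to 71.1 FPKM, while for each other factor the circle and the diamond lie close together.

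At a fold of 1.5 or more, counted as a fixed size and not as a test, 1 of the 10 factors was higher in the knockout column and 0 were lower. Over all 13219 genes compared (at least 1 FPKM in either group and above 0 in both) the share at that fold was 4.27%, with 1.48% higher and 2.78% lower. At 2-fold the member past the threshold was again CREB5, beside 1.02% of all genes, 0.34% higher and 0.681% lower. Since the factors were chosen on this contrast, nothing is read from their count. CREB5 had the ninth highest ratio of all compared genes. The 8 genes above it had at most 1.89 FPKM in wild type, and 7 of them had less than 1 FPKM there. In the knockout column the highest of the 8 was at 11.9 FPKM. Between 10 and 50 FPKM on average there were 5880 genes, of which 1.16% were at 1.5-fold (0.374% higher and 0.782% lower). In this range the central 95% of genes had log2 ratios from -0.42 to 0.35, and the highest after CREB5 was GADD45B at 1.37. Of the 9 factors in this range of level, 8 were inside that central part and CREB5 was outside it. The factors were chosen on these values, so this position describes CREB5 and tests nothing. In wild type CREB5 stood at the middle of the compared genes, above 50.1% of them, and in the knockout column above 87.3%.

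**Figure D2:**
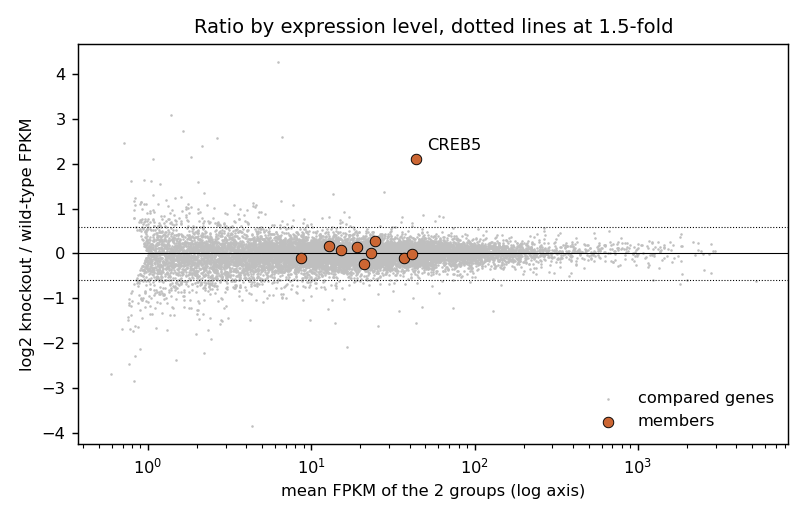
Log2 ratio of knockout over wild type against the mean FPKM of both groups on a log axis, with grey points for the 13219 compared genes and large points for the 10 factors. CREB5, at 2.10, stands apart from genes of similar level, while 8 genes of lower level have higher ratios. The other 9 factors lie within the grey band, between -0.23 and 0.28.

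RefSeq lists 3 transcription starts for CREB5 with sequence in the table used, and the 250 bases before each are shown because CREB5 is the gene with the large difference. The deposited value is 1 number for the whole gene and does not tell which start was used. Capitals mark matches to the cAMP response element TGACGTCA, to its core TGACG, which the full element contains, or to the AP-1 site TGACTCA, each read on both strands. The sequences run 5′ to 3′ on the plus strand of GRCh38.p14 at chr7:28412268-28412517, chr7:28435365-28435614 and chr7:28685883-28686132.
CREB5 start 1: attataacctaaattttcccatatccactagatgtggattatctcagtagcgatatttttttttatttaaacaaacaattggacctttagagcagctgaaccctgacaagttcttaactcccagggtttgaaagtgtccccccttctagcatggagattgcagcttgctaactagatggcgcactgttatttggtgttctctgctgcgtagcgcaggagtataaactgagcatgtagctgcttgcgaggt
CREB5 start 2: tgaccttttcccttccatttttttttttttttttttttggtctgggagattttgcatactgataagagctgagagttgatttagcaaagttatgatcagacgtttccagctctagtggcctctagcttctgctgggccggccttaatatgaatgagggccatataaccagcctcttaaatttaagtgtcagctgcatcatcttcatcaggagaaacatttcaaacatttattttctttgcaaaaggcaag
CREB5 start 3: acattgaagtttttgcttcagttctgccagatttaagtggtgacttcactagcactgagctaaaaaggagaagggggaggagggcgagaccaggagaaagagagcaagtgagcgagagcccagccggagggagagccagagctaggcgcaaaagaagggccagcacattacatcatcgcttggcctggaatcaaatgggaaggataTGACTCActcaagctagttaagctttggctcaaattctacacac
None of the 3 windows held TGACGTCA or its core, and the third held an AP-1 match that begins 44 bases before the start. Of 35116 RefSeq windows of this length, 1.65% held TGACGTCA, 21.2% held the core and 4.20% held the AP-1 letters. A match describes the letters of a window and is not evidence of binding.

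Promoter windows were found for 9 of the 10 factors, 23 windows in all, and ATF2 had none in the table. The full element was present at 2 factors, CREM and CREB3L2, which are shown because they are the matches to the family's own element among its members. CREM is known for an internal promoter with such elements, from which the repressor ICER is made. The CREM window lies at chr10:35195842-35195869 on the plus strand and the CREB3L2 window at chr7:138002248-138002275 on the minus strand, with the element in capitals.
CREM: agctgcacatTGACGTCAgctccgagtc
CREB3L2: agttcctcggTGACGTCAcagacactcc
Neither gene was at 1.5-fold, with log2 ratios of -0.10 for CREM and 0.07 for CREB3L2. The core outside a full element was found at CREM, ATF7 and CREB3, and the core of CREB3L2 was that of its full element. Counted by gene over 27305 genes, 2.03% held the full element and 24.9% the core in any window. A gene with more windows has more room for a match, and CREM has 7, so nothing is read from these counts.

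In the ATF2 subfamily the ratios went different ways. ATF2, which is activated by p38 and JNK kinases, was 22.8 FPKM in wild type and 19.5 FPKM in the knockout column, a log2 ratio of -0.23. ATF7, its closest relative, was 23.2 FPKM and 23.4 FPKM, a log2 ratio of 0.01. CREB5 was thus the lowest of the 3 in wild type and the highest in the knockout column. Its share of their summed FPKM, a quantity per transcript length, was 26.5% in wild type and 62.4% in knockout. The sum of the 3 was 62.6 FPKM against 114 FPKM, while ATF2 and ATF7 together were 46.0 FPKM against 42.8 FPKM. Of all 10 factors, CREB5 made up 7.57% of the summed FPKM in wild type and 25.8% in knockout. ATF7 shares part of its span with a protein-coding gene model on the same strand, RP11-793H13.10. That model had 0.392 FPKM in wild type and 0.203 FPKM in knockout.

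**Figure D3:**
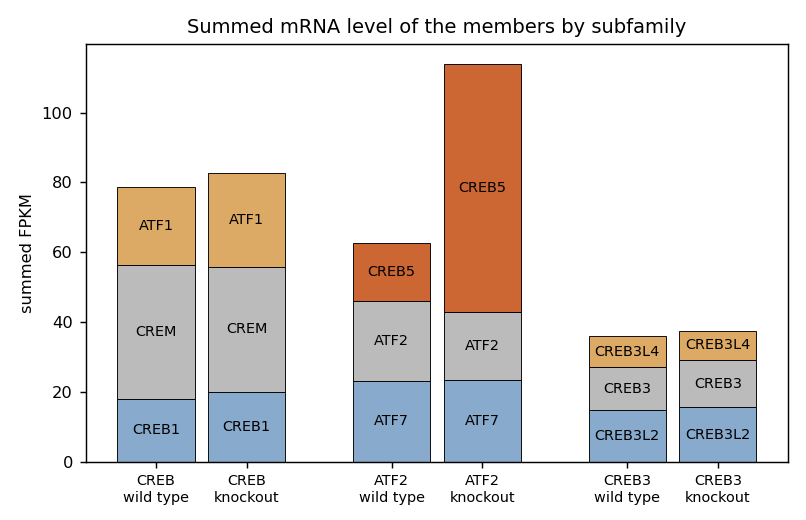
Stacked bars of FPKM in wild type and knockout for the members of the CREB, ATF2 and CREB3 subfamilies, 1 value per group and gene. The ATF2 bar is 62.6 FPKM in wild type and 114 FPKM in knockout, and the added height is the CREB5 segment.

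The CREB subfamily differed little between the columns. CREB1, the main cAMP-responsive activator, was 18.1 FPKM in wild type and 20.1 FPKM in knockout, a log2 ratio of 0.15. ATF1, which pairs with CREB1, was 22.4 FPKM and 27.1 FPKM, a log2 ratio of 0.28 that was the highest of the 9 factors other than CREB5. CREM, which encodes activators and repressors from alternative transcripts, was 38.2 FPKM and 35.6 FPKM, a log2 ratio of -0.10. The table holds 1 value for all CREM transcripts, so its repressor forms cannot be told apart from its activator forms. CREB1 shares part of its span with METTL21A on the opposite strand, which had 13.9 FPKM and 14.0 FPKM.

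The CREB3 subfamily and CREBZF were nearly level. CREB3, a membrane-bound factor of the endoplasmic reticulum, was 12.2 FPKM in wild type and 13.6 FPKM in knockout, a log2 ratio of 0.15. CREB3L2, known for a role in secretory cargo transport in cartilage of mice, was 14.9 FPKM and 15.6 FPKM, a log2 ratio of 0.07. CREB3L4 was the least abundant of the 10, at 8.98 FPKM and 8.35 FPKM, a log2 ratio of -0.11. CREBZF was the most abundant in wild type, at 41.7 FPKM, and stood at 41.6 FPKM in knockout. CREB3 overlaps TLN1 and GBA2, and CREB3L4 overlaps SLC39A1 and JTB, all on the opposite strand. JTB was 118 FPKM in wild type and 152 FPKM in knockout. Whether reads were counted by strand is not stated in the sources used here.

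Factors of the family outside the 10 also lay under 1.5-fold where they were compared. ATF5, a stress-regulated factor, had the highest log2 ratio, 0.48, from 19.9 to 27.7 FPKM. ATF4, the main factor of the integrated stress response, was 176 FPKM and 208 FPKM, a log2 ratio of 0.24. ATF3, an immediate early repressor, had 0.07, and ATF6, a sensor of the unfolded protein response, also 0.07. BATF3 had -0.10, CREB3L1 -0.09, CREBL2 -0.18 and JDP2 -0.27. CREB3L3, ATF6B and BATF were listed at 0 in both columns, which can be a failed estimate, and BATF2 was below 0.2 FPKM. The Ensembl ID listed for ATF6B, unlike those of CREB3L3 and BATF, was not placed on a chromosome by GENCODE. The level of ATF6B is therefore not known here.

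The chromosomal neighbours of CREB5 did not share its ratio. Of the 10 nearest compared genes, 5 on each side in the GENCODE order of chromosome 7, 9 were below 0, with log2 ratios from -0.41 to 0.24 and a median of -0.23. The nearest on each side were JAZF1, a zinc-finger gene, at -0.29 and CPVL, a carboxypeptidase, at -0.13. Beyond them were TAX1BP1 (-0.05), HIBADH (-0.12), HOXA13 (-0.20) and HOXA11 (0.24) on the JAZF1 side and CHN2 (-0.25), PRR15 (-0.41), WIPF3 (-0.40) and SCRN1 (-0.27) on the CPVL side. With the median of the 20 nearest genes taken off, the log2 ratio of CREB5 was 2.23. The gene model that overlaps CREB5 in GENCODE is the pseudogene AC005105.1 on the opposite strand, which has no row in the table.

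**Figure D4:**
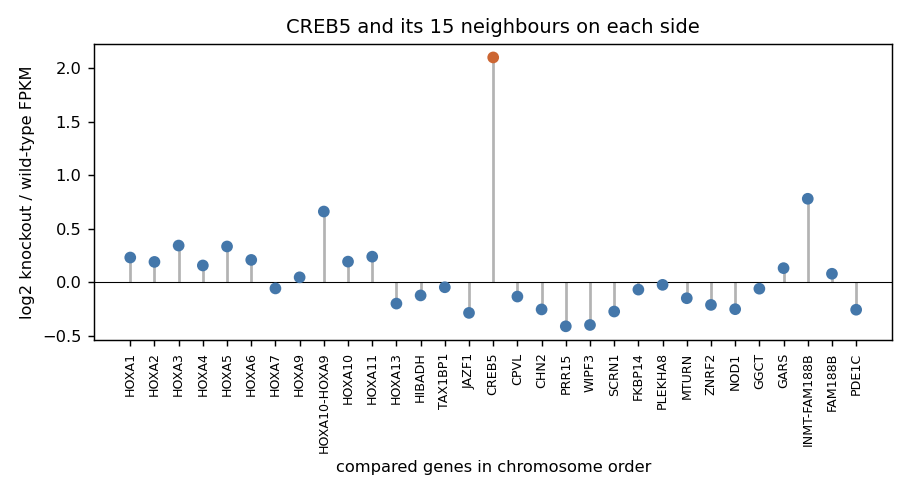
Log2 ratio of knockout over wild type for CREB5 and the 15 compared genes on each side, in chromosome order without scale. CREB5 is at 2.10, and the 15 neighbours on each side lie between -0.41 and 0.78.

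With 2 values per gene, likeness to CREB5 can only be read as a similar ratio. Among genes with at least 5 FPKM in both columns the 4 closest were GADD45B, a stress-inducible gene (log2 ratio 1.37), the zinc-finger gene ZBTB43 (1.33), BSCL2, which encodes seipin of lipid droplets (0.92), and KPNA4, an importin (0.85). The log2 ratio of GADD45B, the nearest, differed from that of CREB5 by -0.73, and the log2 ratio of KPNA4 by -1.25. None of the 4 was therefore close to CREB5. No gene at this level was above CREB5, so they are the next highest ratios.

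The proteins that act with these factors included no coactivator at 1.5-fold, and 4 of 5 coactivators were above 0, where 48.7% of all compared genes were. The median of the 5 was 0.32, beside -0.01 for all compared genes. CRTC1, a coactivator that enters the nucleus when cAMP rises, was 3.79 FPKM and 5.59 FPKM, a log2 ratio of 0.56. Its relative CRTC2 was 47.1 FPKM and 61.4 FPKM (log2 ratio 0.38), whereas CRTC3 was 26.1 FPKM and 21.6 FPKM (-0.27). The acetyltransferases CREBBP and EP300 had log2 ratios of 0.32 and 0.18. FOS and JUN genes were listed together, and of these the JUN proteins can pair with the ATF2 subfamily. Of the 7 genes, 6 were above 0 and 1, FOSB, was past 1.5-fold. FOSB was 1.47 FPKM in wild type and 3.13 FPKM in knockout. Over all compared genes, 4.27% were past that fold and 1.48% were higher. JUN, the main partner of ATF2, had a log2 ratio of 0.06, JUNB of 0.40, JUND of 0.24, FOS of 0.41, FOSL2 of 0.15 and FOSL1 of -0.16.

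The pathway upstream was mostly level. Of 20 kinases listed for CREB, ATF2 or the CRTC coactivators, 10 were above 0 and 10 below, with a median of 0.01. MAPK10, the JNK kinase best known from neurons, was the member past 1.5-fold, at 2.87 FPKM in wild type and 1.20 FPKM in knockout. That is 1 of 20, beside 4.27% of all compared genes past the fold and 2.78% lower. MAPK9 was the most abundant kinase in both columns (log2 ratio -0.07), followed by MAPK12 (-0.16) in wild type and MAPKAPK2 (0.03) in knockout. RPS6KA5, the kinase MSK1 that phosphorylates CREB1 after mitogens or stress, had 0.58, just under 1.5-fold, and RPS6KA6 had -0.57. Of 10 compared genes for protein kinase A subunits and inhibitors, 3 were above 0 and 7 below, with a median of -0.19 and none at 1.5-fold. The regulatory subunit PRKAR1A was 115 FPKM and 101 FPKM, PRKAR2A was 38.1 FPKM and 40.5 FPKM, and the catalytic subunit PRKACA was 39.5 FPKM and 34.6 FPKM. Among 11 adenylyl cyclase and G protein genes the median was 0.00, with GNAS at -0.00 and ADCY3 at 0.12, and cAMP phosphodiesterases a median of 0.05 over 12, with PDE8A at 0.14 and PDE4D at 0.11.

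Target genes of the family were compared from lists drawn from general knowledge, but with earlier results of these data known. Of 26 compared genes on the list of classical CREB targets, 17 were above 0 and 9 below, with a median of 0.09, and 3 were past 1.5-fold, all higher and all under 4 FPKM, beside 1.48% higher and 2.78% lower over all compared genes. These were FOSB (1.09), CGA, the alpha subunit of glycoprotein hormones (1.15 FPKM and 2.26 FPKM, log2 ratio 0.98) and VGF, a neuropeptide precursor (0.903 FPKM and 1.39 FPKM, 0.62). VGF reached the minimum of 1 FPKM in the knockout column alone, so that it entered the comparison through the column where it is high, and its count supports nothing. The most abundant were CCND1 (-0.19) and MCL1 (0.03). The cAMP-induced genes NR4A1, PER1 and SIK1 had 0.00, -0.03 and 0.20, but were picked after their values were seen. They do not stand for the list, on which FOS had 0.41 and JUNB 0.40, and 9 genes were below 0. Of 8 compared targets of ATF2 and ATF7, 5 were above 0 and none was at 1.5-fold, with JUN at 0.06 and CCNA2 at 0.10. The lists share genes, so their tallies are not separate. For example, ATF3 and CCNA2 are on both target lists, and JUN is also counted among the FOS and JUN genes. FOS, FOSB and JUNB are counted there and as CREB targets, and the member CREM is a CREB target too. The 11 secretory targets of the CREB3 family centred on 0.03, with COPZ1 at 0.03 and SEC31A at 0.08. For the 5 processing proteases and partners of that family the median was -0.08, with MBTPS1 (site-1 protease) at -0.08 and HCFC1 at 0.10.

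**Figure D5:**
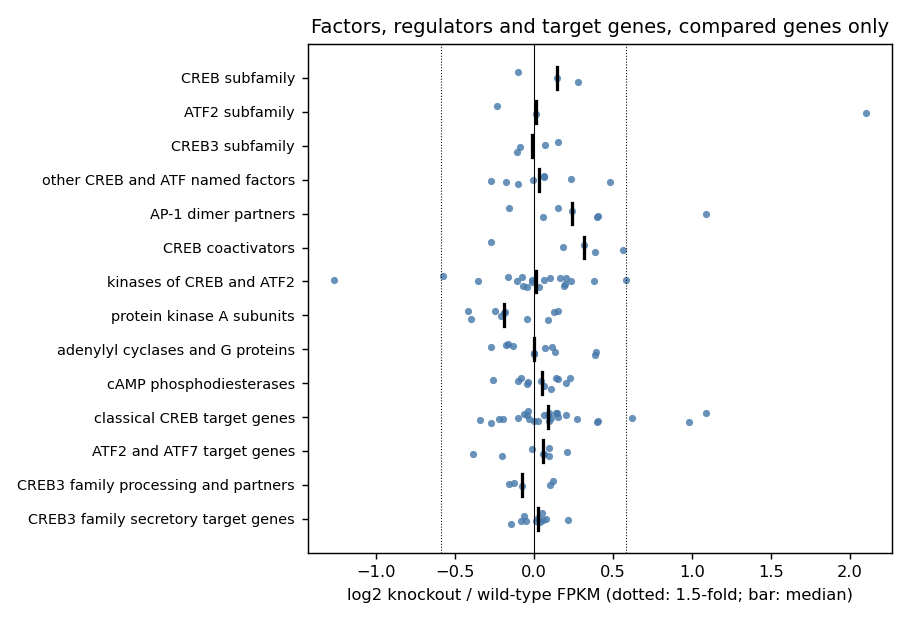
Log2 ratios of the compared genes of each list, 1 point per gene, with a bar at the list's median and dotted lines at 1.5-fold. CREB5 at 2.10 stands apart, and beyond the dotted lines otherwise lie FOSB, CGA and VGF to the right and MAPK10 to the left.

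The letters TGGAG, a short G-rich element searched for in view of the study's title, were counted in the longest GENCODE coding sequence of each gene. The 4 sites in the CREB5 coding sequence are shown with their surroundings, on the plus strand of chromosome 7 in GRCh38, with the motif in capitals and the position of its first base counted from 1 at the start codon.
CREB5 position 29: caagatgaattTGGAGcaggagaggcc
CREB5 position 245: ggactgctcccTGGAGcacgagttcag
CREB5 position 593: cttgatgccaaTGGAGcgacaaatgtc
CREB5 position 776: gggacacatgaTGGAGatgatgggctc
With 2.62 per kb, CREB5 was near the median of 2.83 per kb over 13122 compared genes, of which 93.1% held the letters. CREB3 had 9 sites (8.06 per kb), CREB3L2 11 sites (7.04 per kb) and CREB3L4 8 sites (6.73 per kb), each more per kb than 95.1% of genes or a larger share. The log2 ratios of these 3 lay between -0.11 and 0.15. ATF2, with 1 site, was at 0.659 per kb, CREM at 0.963, ATF7 at 1.35, ATF1 at 3.68, CREBZF at 3.76 and CREB1 at 4.87. These counts concern letters, and neither binding nor translation was measured in this table.

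For the labels, CNBP mRNA was 202 FPKM in wild type and 214 FPKM in knockout. A small deletion or insertion can end a protein while its mRNA persists, and this level therefore cannot show which column is the knockout. Each direction above rests on the column labels. Of markers listed for HEK293 cells, VIM, KRT8, KRT18, CDH2 and LIN28B were above 20 FPKM in both columns. PAX2 was at 2.71 and 2.16 FPKM, and NEFM was about 1 FPKM. NEFL was listed at 0 with a transcript length of 0, so its level is not known here. Of 8 blood and endothelial markers, CD68 at 7.68 and 7.37 FPKM and TIE1 at 1.27 and 1.61 FPKM were above 1 FPKM, and the other 6 were at 0 or below 0.3 FPKM. COL1A1, COL3A1, DCN and LUM, genes of mesenchymal cells, were between 3.63 and 41.3 FPKM with log2 ratios from -0.39 to -0.01, and ALB and APOA1 were below 1 FPKM. In bulk RNA, fewer cells with a transcript and less of it per cell cannot be told apart.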

How the data were processed

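Libraries were prepared from HEK293 total RNA with a directional kit, as the labels' protocols state. FPKM values, 1 per gene and group, were computed and deposited by the authors. The submitters' processing notes name TopHat, Cufflinks, Cuffdiff and the build hg19. No header gives the unit, which rests on those tools and on the column sums of 612366 and 612941. The annotation, the strand setting and the way the libraries were pooled are not stated in the sources used here, and the depth is unknown.

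The 10 members and the lists were chosen with earlier results of these data known. Log2 ratios of knockout over wild type were computed without a pseudocount for 13219 genes with at least 1 FPKM in either group and above 0 in both. A fold of 1.5 was counted in place of a test, since 1 value per group allows none. How often the spread between libraries alone gives a fold of 1.5 was not tested. Named genes were all members, the other family genes, FOS and JUN genes and coactivators; from each other list up to 4 genes past the fold and the 2 most abundant; the 4 nearest ratios to CREB5; and its 5 neighbours on each side. RPS6KA5, RPS6KA6, PRKACA, NR4A1, PER1 and SIK1 were chosen after their values were seen. Symbols of 26 genes, turned into date numbers, were restored by Ensembl ID, and 19130 of 19892 IDs matched. Promoters are RefSeq on GRCh38.p14. Gene order, overlaps and coding sequences are GENCODE 29 on GRCh38, another build than the authors'. Lengths in the table, of unit base, were not used for the ratios. Python 3.11.15, numpy 2.4.6, pandas 2.3.3 and matplotlib 3.10.9 were used.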

Additional observations from a re-analysis of the deposited data

How the results depend on the processing

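The log2 ratio of CREB5 was 2.04 with a pseudocount of 1, 2.09 with 0.1, 2.11 centred on the median of compared genes and 2.23 with the 20 nearest genes taken off. The other 9 factors stayed under 1.5-fold in these 4 settings, and their sign held except for CREBZF, which went from -0.00 to 0.00 with centring and to 0.10 with its neighbours taken off. The count of members past the fold was 1 higher and 0 lower with a minimum of 5 FPKM, no minimum, a 2-fold threshold or a pseudocount of 1. These settings left no room for another count. The lowest member value was 8.35 FPKM, CREB5 was at 4.29-fold, and the other 9 were well under 1.5-fold. Of the listed genes other than the members, 3 were higher and 1 lower. With a minimum of 5 FPKM these were 0 and 0, with no minimum 6 and 6, with a 2-fold threshold 1 and 1, and with a pseudocount of 1 they were 2 and 1. Over all genes, 196 higher and 368 lower became 53 and 126 with a minimum of 5 FPKM and 74 and 141 with a pseudocount of 1. The minimum removes genes from the comparison, and a pseudocount lowers the ratios of low genes by construction. No paired analysis was possible because the table holds 1 value per group, and no library could be left out for the same reason. Depth is unknown, so how far a difference exceeds counting error could not be given.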
